A study of Mus musculus with 8 samples.

Results

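The 8 genes described here encode CXC chemokines, small secreted proteins named for a pair of conserved cysteines parted by 1 residue. They are Cxcl1, Cxcl2, Cxcl5, Cxcl9, Cxcl10, Cxcl13, Cxcl14 and Cxcl16. They were taken by gene symbol from 17068 genes in the deposited expression table, and all 8 were found there. The set was chosen by its measured difference between leukemic and control libraries, with Cxcl13 and Cxcl9 singled out for theirs and the others added as relatives. Differences of the 8 genes between the groups are therefore given as a description, with no test.

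RNA-seq was done on osteoblastic cells (OBCs), the bone-forming cells, freshly sorted from long bones of female C57BL/6J mice aged about 10 weeks. There were 4 libraries from mice bearing leukemia of the B-ALL kind (B-cell acute lymphoblastic leukemia) that was BCR-ABL+, and 4 from healthy mice, called leukemic and control libraries below. The labels give no other genotype or treatment. They do not say how the leukemia was established, which surface markers defined the sort, whether bones were pooled, or whether each library is a separate animal. P-values therefore measure only the spread between these libraries, which may be technical. Levels are FPKM, a count of sequenced fragments divided by transcript length and by library size, so they can be compared between genes. Read depth is unknown, because the table holds no counts.

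Chemokines bind G-protein-coupled receptors on leukocytes and draw the cells along a gradient. Cxcl1, Cxcl2 and Cxcl5 carry a glutamate-leucine-arginine motif and attract neutrophils through Cxcr2. Cxcl9 and Cxcl10 are induced by interferons and attract T and NK cells through Cxcr3, and Cxcl13 attracts B cells through Cxcr5. Cxcl16 is made as a membrane-bound ligand of Cxcr6, and Cxcl14 is a homeostatic chemokine of epithelia and stroma. In marrow, the related Cxcl12 is produced in quantity by reticular stromal cells and holds blood-forming and B-lineage cells that carry Cxcr4.

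Of the 8 genes, 6 lie on chromosome 5 (GRCm38.p6). Cxcl5 (gene ID 20311, 90759298 to 90761625), Cxcl1 (14825, 90891245 to 90893121) and Cxcl2 (20310, 90903899 to 90905938) sit in a stretch of 146.6 kb that also holds Ppbp, Pf4, Cxcl3 and Cxcl15. Cxcl9 (17329, 92321331 to 92328079) and Cxcl10 (15945, 92346638 to 92348889) lie within 27.6 kb, and Cxcl13 (55985, 95956939 to 95961068) lies farther along. Cxcl14 (57266) spans chromosome 13, 56288643 to 56296811, and Cxcl16 (66102) spans chromosome 11, 70454389 to 70459984. Promoter windows of 300 bases, 250 before and 50 after the transcription start, were held by RefSeq (GRCm38.p6) for 6 of the 8 genes. They are shown for the B-cell attractant, for both Cxcr3 ligands and for the most abundant neutrophil attractant. Capitals mark letters that match any of 4 searches on both strands: GGG and TTCC parted by 3 or by 2 letters of any kind for NF-kB sites (the longer and the shorter search), GAAA and GAAA parted by 2 letters for the interferon-stimulated response element, and TTC and GAA parted by 3 letters for the gamma-activated site. The windows are Cxcl1 at chr5:90890995-90891294 on the plus strand, Cxcl9 at chr5:92328030-92328329 and Cxcl10 at chr5:92348840-92349139 on the minus strand, and Cxcl13 at chr5:95956689-95956988 on the plus strand.
Cxcl1: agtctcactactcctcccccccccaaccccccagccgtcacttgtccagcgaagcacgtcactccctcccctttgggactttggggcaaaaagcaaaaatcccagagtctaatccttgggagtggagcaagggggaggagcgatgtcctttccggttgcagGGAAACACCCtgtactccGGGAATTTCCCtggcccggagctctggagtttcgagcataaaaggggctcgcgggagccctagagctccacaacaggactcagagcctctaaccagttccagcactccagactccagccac
Cxcl9: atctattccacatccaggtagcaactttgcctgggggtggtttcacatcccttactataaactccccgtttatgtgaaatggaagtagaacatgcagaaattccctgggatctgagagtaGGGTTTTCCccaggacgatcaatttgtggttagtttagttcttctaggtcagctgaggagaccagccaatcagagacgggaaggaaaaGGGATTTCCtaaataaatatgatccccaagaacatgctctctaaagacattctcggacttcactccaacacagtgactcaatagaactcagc
Cxcl10: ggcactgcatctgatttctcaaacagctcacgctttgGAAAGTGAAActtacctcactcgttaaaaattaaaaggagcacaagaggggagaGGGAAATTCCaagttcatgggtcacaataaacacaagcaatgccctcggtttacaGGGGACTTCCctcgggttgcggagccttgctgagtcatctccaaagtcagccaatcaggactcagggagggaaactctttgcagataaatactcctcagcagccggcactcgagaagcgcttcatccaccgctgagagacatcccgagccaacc
Cxcl13: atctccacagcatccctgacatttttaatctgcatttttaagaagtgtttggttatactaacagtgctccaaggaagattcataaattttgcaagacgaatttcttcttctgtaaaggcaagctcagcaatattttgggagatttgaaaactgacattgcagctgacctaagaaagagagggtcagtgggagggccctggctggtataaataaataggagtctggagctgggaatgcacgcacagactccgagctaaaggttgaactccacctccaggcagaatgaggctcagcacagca

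The Cxcl1 window held the NF-kB letters GGGAATTTCC at position -71 from the start, a match that overlaps its own mirror on the other strand, and a further match at -89. The Cxcl2 window held the same GGGAATTTCC at -97 and GGGCTTTTCC at -78. Cxcl9 matched the shorter NF-kB search with GGGATTTCC at -42 and GGGTTTTCC at -130. Cxcl10 held GGGAAATTCC at -159, GGGGACTTCC at -104, which overlaps a match of the shorter search, and the interferon response letters GAAAGTGAAA at -213. Cxcl14 held GAAACAGAAA at -172 and the gamma-activated letters TTCTGAGAA at -191. Its window, chr13:56296502-56296801 on the minus strand, lies wholly within the gene span given above, so these positions count from a start inside that span. In the Cxcl13 window none of the 4 searches found its letters. Among 27025 promoter windows, 5.52% held the longer and 5.72% the shorter NF-kB letters, 3.49% the interferon response letters and 8.47% the gamma-activated letters. These matches describe letters only, and binding was not measured.

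Cxcl13 showed the widest gap between the groups. It stood at 13.9, 19.3, 8.01 and 17.5 FPKM in leukemic libraries 1 to 4 and at 1.31, 1.63, 2.31 and 0.08 FPKM in control libraries 1 to 4. No control library reached any leukemic one, and the lowest leukemic level was more than 3 times the highest control level. The means were 14.7 ± 4.97 and 1.33 ± 0.933 FPKM (SD, n = 4 each), a ratio of 11.0. The control levels were near the floor of the table, so this ratio rests on small values. As log2(FPKM + 1), a scale that compresses changes at low levels, the difference was 2.79 (SE 0.37).

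Cxcl9 stood at 8.79, 23.4, 29.5 and 25.1 FPKM in leukemic libraries 1 to 4, and at 6.07, 4.69, 13.0 and 5.08 FPKM in control libraries 1 to 4. Leukemic libraries 2 to 4 lay above every control, whereas leukemic library 1 lay below control library 3. The means were 21.7 ± 8.98 and 7.21 ± 3.89 FPKM (n = 4 each), 3.01 times higher in the leukemic group, with a log2 difference of 1.45 (SE 0.39). Its neighbour Cxcl10 was more abundant and overlapped more. It stood at 48.7, 103.8, 102.9 and 66.8 FPKM in leukemic libraries 1 to 4 and at 34.1, 33.8, 140.5 and 38.5 FPKM in control libraries 1 to 4. Control library 3 had the highest Cxcl10 level of all 8 libraries, and each leukemic library lay above the other 3 controls. The means were 80.5 ± 27.3 and 61.7 ± 52.6 FPKM (n = 4 each), with a log2 difference of 0.61 (SE 0.45) that was 1.10 (SE 0.28) without control library 3.

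**Figure D1:**
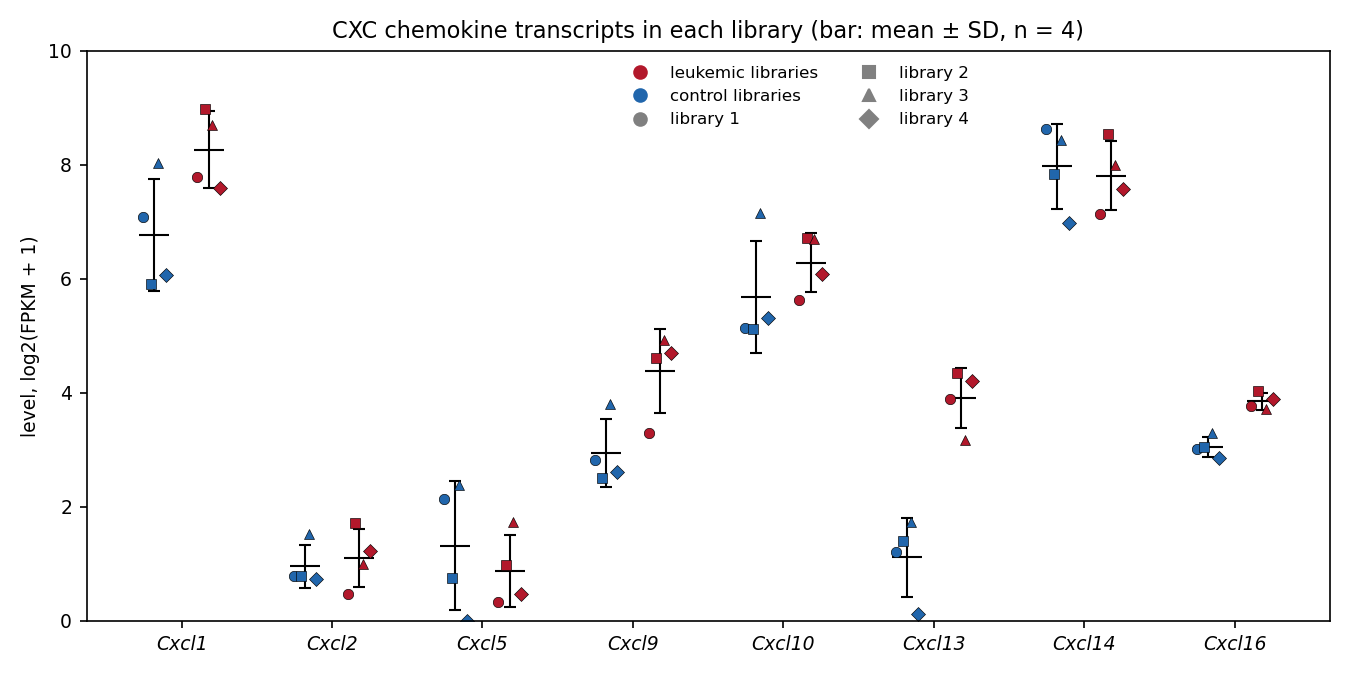
Level of each CXC chemokine transcript, log2(FPKM + 1), in 4 control libraries (blue) and 4 leukemic libraries (red); the marker shape gives the library number and the bars show mean ± SD. The groups do not overlap in Cxcl13 and Cxcl16, and control library 3 (blue triangle) is the highest control in every gene except Cxcl14.

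Among the neutrophil attractants, Cxcl1 was abundant while Cxcl2 and Cxcl5 were near the floor of the table. Cxcl1 stood at 219.2, 503.2, 413.6 and 191.8 FPKM in leukemic libraries 1 to 4 and at 133.8, 58.8, 260.3 and 65.9 FPKM in control libraries 1 to 4. Control library 3 lay above leukemic libraries 1 and 4, so the groups overlapped. The means were 331.9 ± 150.9 and 129.7 ± 93.4 FPKM (n = 4 each), a ratio of 2.56 and a log2 difference of 1.49 (SE 0.48). The transcript is short (953 bases). The difference was 0.96 (SE 0.43) once each library's trend with transcript length, relative to the mean of the libraries, was removed. It was 1.38 (SE 0.57) without leukemic libraries 1 and 2, in which short transcripts were most abundant relative to the other libraries.

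Cxcl2, the close relative and neighbour of Cxcl1, was found at 0.39, 2.27, 1.00 and 1.32 FPKM in the leukemic, and 0.72, 0.73, 1.87 and 0.66 FPKM in control libraries 1 to 4. Its group means differed by 0.14 (SE 0.29) on the log2 scale, less than the spread between libraries. Cxcl5 was listed at 0.26, 0.97, 2.32 and 0.38 FPKM in the leukemic, and 3.41, 0.68, 4.21 and 0 FPKM in control libraries 1 to 4. It reached 1 FPKM in only 3 libraries and was not fitted. The highest Cxcl5 levels were in control libraries 1 and 3. Of the 31-base subsequences of Cxcl2 transcripts, 7.59% were shared with Cxcl3, which was listed at 0 FPKM in 7 libraries and at 0.22 FPKM in control library 4.

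Cxcl16 varied least among replicates. It stood at 12.6, 15.3, 12.1 and 13.8 FPKM in leukemic libraries 1 to 4 and at 7.07, 7.25, 8.78 and 6.27 FPKM in control libraries 1 to 4. All leukemic libraries lay above all controls. The means were 13.5 ± 1.45 and 7.34 ± 1.05 FPKM (n = 4 each), a ratio of 1.83, and the log2 difference was 0.80 (SE 0.17). Cxcl14 showed no such separation, with 139.2, 372.6, 252.7 and 189.4 FPKM in leukemic libraries 1 to 4, against 396.5, 229.1, 346.0 and 125.1 FPKM in control libraries 1 to 4. Its means of 238.5 ± 100.8 and 274.2 ± 121.6 FPKM (n = 4 each) differed by -0.17 (SE 0.39) on the log2 scale, and the sign turned when leukemic library 1 (0.061) or control library 1 (0.055) was left out.

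Of the 8 genes, 7 reached 1 FPKM in at least 4 libraries and were fitted, and 6 of these had a higher leukemic mean on the log2 scale. None passed limma's test with Benjamini-Hochberg adjustment over the 11214 genes fitted, a threshold passed by 0% of all genes in either direction. The leukemic libraries lay entirely above the controls in Cxcl13 and Cxcl16, 2 of the 7 genes, and in 0.954% of all genes; the reverse, all leukemic libraries below all controls, held for 0 of the 7 and for 2.9% of all genes. Nothing is read from these counts, since the genes were chosen with this comparison known. Unadjusted p-values under 0.05 were given to 2.49% of all genes in the higher and 4.13% in the lower direction, and the median log2 difference over all genes was -0.025.

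Within the leukemic group the levels ran in the order Cxcl1, Cxcl14, Cxcl10, Cxcl9, Cxcl13, Cxcl16, Cxcl2 and Cxcl5. Cxcl1 lay above Cxcl14, Cxcl14 above Cxcl10 and Cxcl10 above Cxcl9 in 4 of 4 leukemic libraries. Cxcl9 lay above Cxcl13, and Cxcl13 above Cxcl16, in 3 of 4, so these 3 genes did not part beyond their spread. In control libraries the order was Cxcl14, Cxcl1, Cxcl10, Cxcl16, Cxcl9, Cxcl5, Cxcl13 and Cxcl2. Here Cxcl14 lay above Cxcl1 in 4 of 4 libraries, the reverse of the order in leukemic libraries. In leukemic library 4, however, Cxcl1 and Cxcl14 were nearly level, at 191.8 and 189.4 FPKM. The transcripts also differ in length (953 and 1827 bases), for which this order was not adjusted. Control Cxcl16 and Cxcl9 did not part beyond their spread (3 of 4), nor did Cxcl5, Cxcl13 and Cxcl2 (2 of 4 and 3 of 4). Together Cxcl1 and Cxcl14 made up between 75.3% and 91.0% of the summed FPKM of the 8 genes in each library.

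The libraries differed within each group in a way that ran through most of the family. Control library 3 had the highest control level of 7 of the 8 genes, all but Cxcl14, and leukemic library 2 had the highest leukemic level of 6, all but Cxcl9 and Cxcl5. Over all genes fitted, control library 3 was the highest control for 27.8% and leukemic library 2 the highest leukemic library for 35.5%. The lowest leukemic level was in leukemic library 1 for 5 of the 8 genes, and the lowest control level was in control library 4 for 5. The share of all genes lowest in these libraries was not computed, so nothing is read from these counts. Over all genes fitted, they were the least often highest of their groups, at 15.5% and 19.0%.

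Summed markers of marrow reticular stroma, the cells that make Cxcl12, varied between libraries in the same places. Their summed level over 6 genes (Cxcl12, Lepr, Adipoq, Kitl, Ebf3 and Pdgfra, all 6 at 1 FPKM or more in at least 4 libraries) ran from 1339 to 3558 FPKM in leukemic and from 1104 to 4972 FPKM in control libraries. The highest control value was in control library 3 and the lowest in control library 4, and the highest leukemic value was in leukemic library 2 and the lowest in leukemic library 1. Most of the sum was Cxcl12 itself, at 3680 of 4972 FPKM in control library 3. All 6 markers were highest among controls in control library 3, but their other extremes differed. Lepr, Kitl and Pdgfra were lowest among controls in control library 2. Among leukemic libraries, Adipoq was lowest and Pdgfra highest in library 4. Lepr, the leptin receptor, was 274.2 FPKM in control library 3 and 72.0 to 178.6 FPKM in the other controls. Adipoq, the adipocyte hormone adiponectin, was 939.0 FPKM there and 183.2 to 772.8 FPKM in the other controls. The part of these markers in the chemokine levels was not tested, and in bulk RNA fewer cells of a type and less RNA per cell cannot be told apart.

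**Figure D2:**
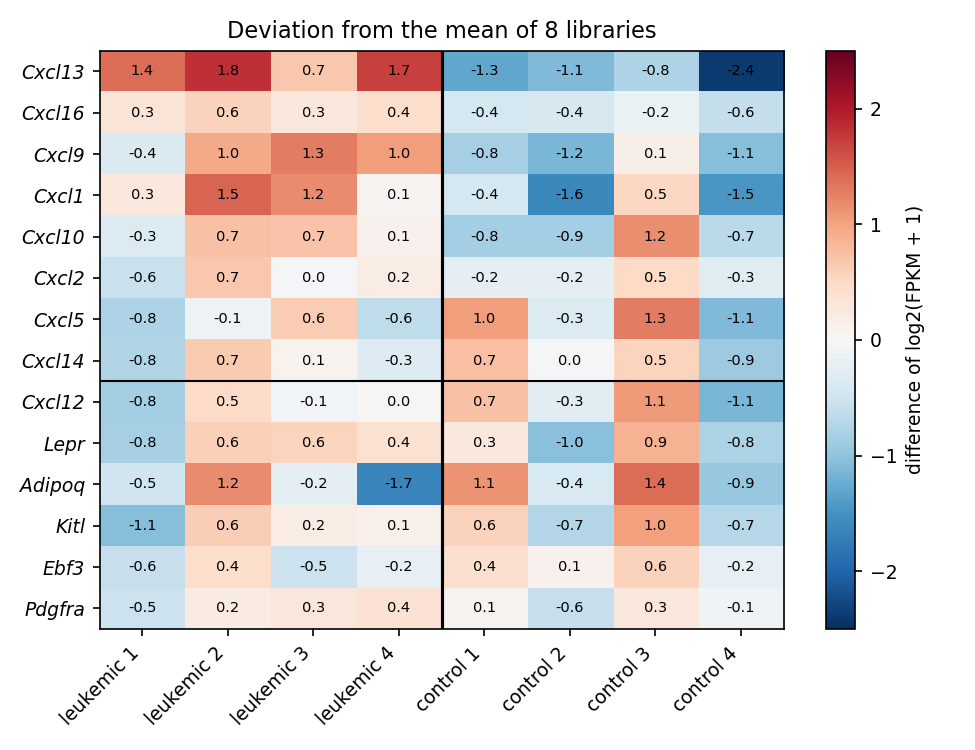
Difference of log2(FPKM + 1) from the mean of the 8 libraries for the 8 CXC chemokine genes (above the line) and the 6 marrow reticular stroma markers (below it); red is higher, blue lower, and each cell prints its value. Cxcl13 and Cxcl16 part by group, whereas Cxcl10, Cxcl5 and Cxcl14 are high in control library 3 together with the stroma markers.

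Cxcl12, the most abundant CXC chemokine, was 979.7, 2457, 1681 and 1803 FPKM in leukemic libraries 1 to 4, against 2924, 1449, 3680 and 797.7 FPKM in control libraries 1 to 4. The groups overlapped across their whole range (log2 difference -0.19, SE 0.47, limma adjusted p = 0.937), and the sign was positive (0.13) without control library 3. Set against Cxcl12 within each library, some members parted by group and others did not. Cxcl13 was 1.42%, 0.784%, 0.476% and 0.97% of the Cxcl12 level in leukemic libraries 1 to 4, against 0.0448%, 0.112%, 0.0628% and 0.01% in control libraries 1 to 4. Cxcl9 was 0.897%, 0.953%, 1.76% and 1.39% of Cxcl12 in leukemic and 0.208%, 0.324%, 0.353% and 0.637% in control libraries. Cxcl1 was 22.4%, 20.5%, 24.6% and 10.6% of Cxcl12 in leukemic and 4.58%, 4.06%, 7.07% and 8.26% in control libraries. In these 3 ratios all leukemic libraries lay above all controls, also where the level itself overlapped (Cxcl9 and Cxcl1). The reverse held for Cxcl16, whose level parted by group but whose ratio to Cxcl12 overlapped, at 1.29%, 0.624%, 0.717% and 0.764% in leukemic and 0.242%, 0.50%, 0.239% and 0.786% in control libraries.

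Cxcl10 was 4.97%, 4.22%, 6.12% and 3.71% of Cxcl12 in leukemic and 1.17%, 2.33%, 3.82% and 4.82% in control libraries, and these overlapped. Cxcl14 kept to between 10.5% and 15.2% of Cxcl12 in leukemic and between 9.40% and 15.8% in control libraries. Between the Cxcr3 ligands, Cxcl9 was 18.1%, 22.6%, 28.7% and 37.5% of Cxcl10 in leukemic libraries 1 to 4, against 17.8%, 13.9%, 9.24% and 13.2% in control libraries 1 to 4. Here all leukemic libraries lay above all controls, by a narrow margin between leukemic library 1 and control library 1. The transcripts of Cxcl1 (953 bases), Cxcl13 (1150) and Cxcl9 (2889) are shorter than that of Cxcl12 (5627). Short transcripts were relatively high in leukemic libraries 1 and 2, and long ones in leukemic library 4 and control library 4. This length trend was not removed from the ratios, and its part in them was not tested. The ratios come from the comparison that chose the genes and were formed after the levels were seen, so they too are given with no test. The share of all genes whose ratio to Cxcl12 parts by group was not computed, so nothing is read from these separations.

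**Figure D3:**
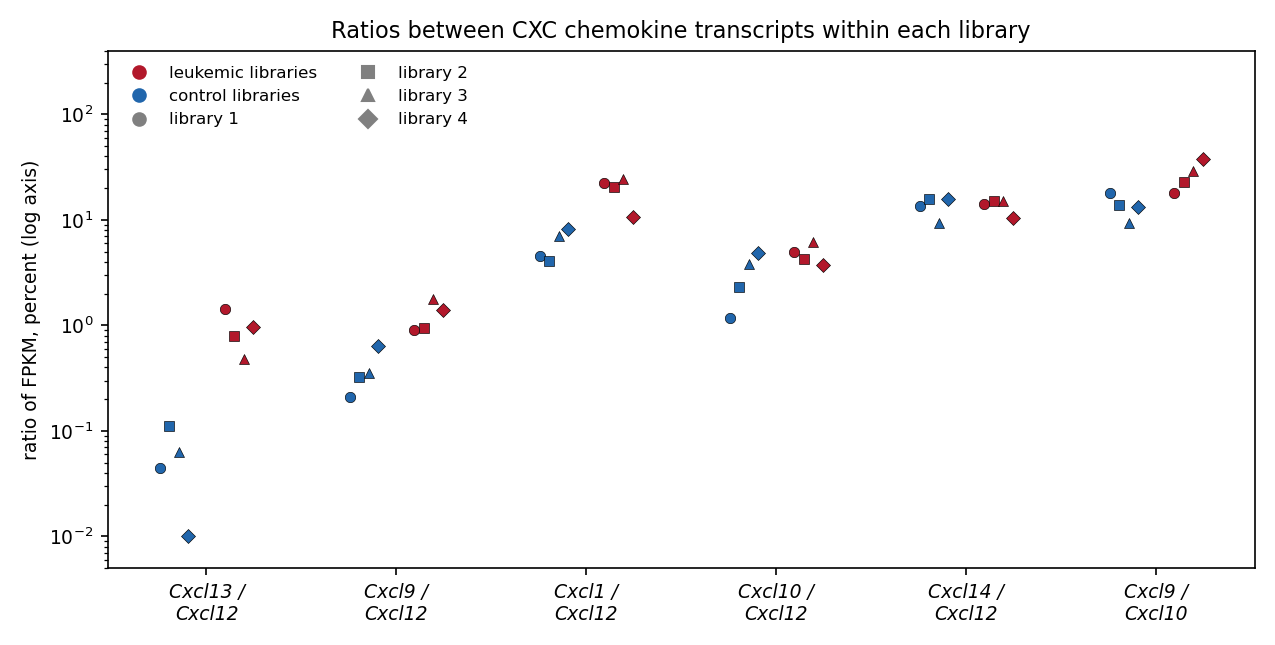
Ratio of FPKM between pairs of CXC chemokine transcripts in each library, in percent on a log axis, for control (blue) and leukemic (red) libraries. Cxcl13, Cxcl9 and Cxcl1 relative to Cxcl12 do not overlap between groups, whereas Cxcl10 and Cxcl14 relative to Cxcl12 do. The trend with transcript length was not removed.

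The remaining CXC ligands of the table were low. Ppbp and Pf4, platelet chemokines, had means of 2.39 and 1.99 FPKM in leukemic libraries and of 4.08 and 1.46 FPKM in controls, and neither passed (limma adjusted p = 0.704 and 0.99). Cxcl17 was listed at 1.38 FPKM in leukemic library 2 and at 0.33 FPKM or less in the other 7, and Cxcl15 at 0 in 7 libraries. Cxcl11 was not analysed here.

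Transcripts of the receptors that these ligands signal through were almost absent from the sorted cells. Cxcr2 ran from 0.04 to 0.5 FPKM over the 8 libraries, Cxcr3 from 0.02 to 0.29, Cxcr4 from 0.07 to 0.67, Cxcr5 from 0 to 0.1 and Cxcr6 from 0.02 to 0.43 FPKM. Ackr1, a decoy receptor of endothelial and red cells, was at 0.74 and 0.29 FPKM in leukemic libraries 1 and 4 and at 0 in the other 6. None of these 6 genes reached 1 FPKM in any library. By contrast, the atypical receptors Ackr3 and Ackr4, which take up chemokines without G-protein signalling, were well detected. Ackr3, a scavenger of Cxcl12, was 59.3 ± 12.4 FPKM in leukemic and 73.6 ± 29.7 FPKM in control libraries (n = 4 each), with a log2 difference of -0.23 (SE 0.31, limma adjusted p = 0.869). Ackr4, a scavenger of Ccl19 and Ccl21, was 47.0 ± 23.0 against 50.5 ± 28.8 FPKM (n = 4 each), with a log2 difference of -0.06 (SE 0.43, limma adjusted p = 0.981). Of the 9 receptors listed, 8 were in the table, 2 were fitted, and 0 passed; Cxcr1 was not analysed here.

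Genes of the pathways that induce or process these chemokines were examined in lists. No gene of these lists passed limma's test over all genes, and the most abundant genes of each list are named first. In the interferon gamma list, 6 of 8 genes had positive log2 differences, with a median of 0.16. At an unadjusted p under 0.05, 1 was higher and 0 lower, beside 2.49% and 4.13% of all genes. Nothing is read from counts this small, here or in the lists below. Ifngr1 and Ifngr2, the receptor chains, had log2 differences of 0.16 (SE 0.23) and 0.34 (SE 0.30), and Jak1, a kinase bound to the receptor, of 0.01 (SE 0.25). Irf1, a transcription factor induced by interferons, had a log2 difference of -0.175 (SE 0.32), which was 0.29 without leukemic libraries 1 and 2. It was highest in control library 3, at 152.4 FPKM, as Cxcl10 was. Irf8, an interferon-induced transcription factor picked after its values were seen, stood at 10.8 ± 3.16 against 6.16 ± 3.08 FPKM (n = 4 each; log2 difference 0.76, SE 0.31, limma adjusted p = 0.695).

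In the NF-kB and lymphotoxin receptor list, 5 of 12 genes were positive and 7 negative, with a median of -0.09. Over all genes fitted, the leukemic libraries lay entirely above the controls in 0.954% and entirely below in 2.9%. In this list Relb, the partner of p52 in the alternative NF-kB pathway, was the only one of 12 whose groups did not overlap. It stood at 12.4, 17.8, 14.7 and 15.7 FPKM in the leukemic, and 11.4, 10.8, 9.66 and 6.43 FPKM in control libraries 1 to 4 (log2 difference 0.62, SE 0.21, limma adjusted p = 0.695). Leukemic library 1 and control library 1 were close to each other. Among the most abundant genes, Nfkbia, the inhibitor induced by NF-kB, had a log2 difference of 0.655 (SE 0.27), the TNF receptor gene Tnfrsf1a of -0.14 (SE 0.19), Nfkbiz of 0.16 (SE 0.27) and Rela of -0.09 (SE 0.17). At an unadjusted p under 0.05, 2 genes of the list were higher and 1 was lower, beside 2.49% and 4.13% of all genes. The lower gene, named after its values were seen, was Nfkb1, which encodes p50, at 8.06 ± 2.33 against 12.5 ± 1.585 FPKM (n = 4 each; log2 difference -0.60, SE 0.21, limma adjusted p = 0.695).

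IL-1 and IL-17 induce Cxcl1 in stromal cells. The list of their receptors and adaptors had 4 positive and 2 negative differences among 6 genes (median 0.14). At an unadjusted p under 0.05, 0 were higher or lower, beside 2.49% higher and 4.13% lower among all genes. The adaptor gene Myd88 stood at -0.09 (SE 0.22), Il17rc at 0.27 (SE 0.27), Il1r1 at 0.37 (SE 0.26) and Il17ra at 0.24 (SE 0.28) on the log2 scale. Among genes that bind, shed or trim chemokines or control their mRNA, 3 of 8 were positive (median -0.03), again with 0 at an unadjusted p under 0.05. Zfp36, which speeds decay of Cxcl1 and other AU-rich mRNAs, had a log2 difference of -0.31 (SE 0.23). The syndecans Sdc4 and Sdc1, whose sugar chains hold chemokines, had log2 differences of 0.26 (SE 0.28) and -0.11 (SE 0.25). Adam17, a protease that sheds membrane proteins, and Adam10, which releases soluble Cxcl16, both had log2 differences of -0.03 (SE 0.22 and 0.33). Over all these lists, with the other ligands and the receptors, 19 fitted genes were positive and 20 negative, beside 46.4% positive among all genes. Without leukemic library 1, 12 were negative.

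**Figure D4:**
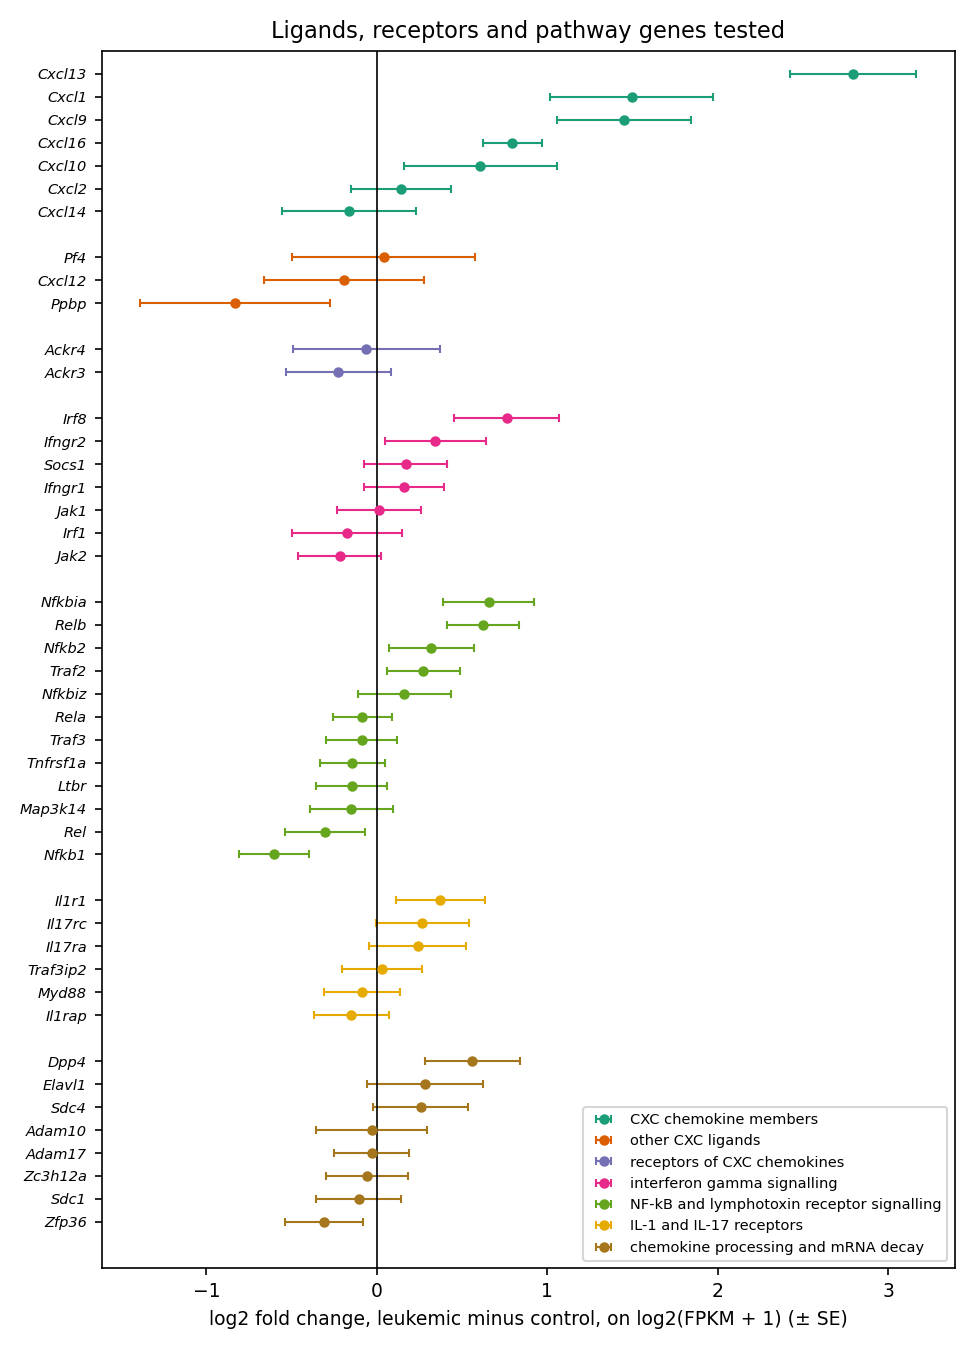
Difference in log2(FPKM + 1) between the leukemic and control means, positive where leukemic is higher, with its standard error, for fitted genes of the CXC chemokines, the other CXC ligands, the receptors and the 4 pathway lists, coloured by list. Cxcl13 lies at 2.79 and the genes shown outside the first list lie between -0.83 and 0.76.

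Markers of cells that might accompany osteoblasts through the digestion and sort were set beside the chemokines. The 10 macrophage and monocyte markers summed to 137.7, 165.3, 105.2 and 72.1 FPKM in leukemic libraries 1 to 4 and to between 70.4 and 91.3 FPKM in control libraries, with Lyz2 and Cd14 as the largest terms. Leukemic libraries 1 to 3 thus lay above every control and leukemic library 4 inside the control range. Lyz2, the lysozyme of myeloid cells, was 82.9 ± 34.0 against 43.0 ± 5.57 FPKM (n = 4 each; log2 difference 0.835, SE 0.30, limma adjusted p = 0.695). The other fitted markers did not share this difference. Cd14 stood at -0.017 (SE 0.24), Cd68 at -0.331 (SE 0.28) and C1qb at 0.145 (SE 0.35) on the log2 scale. The higher leukemic sums thus came mainly from Lyz2. Of these 10, 4 reached 1 FPKM in at least 4 libraries, and Adgre1 and Fcgr1, which define mature macrophages, were at 0.65 FPKM or less in every library. The 8 B-lineage markers summed to 6.61, 14.3, 3.01 and 1.19 FPKM in leukemic libraries 1 to 4 and to between 0.98 and 2.53 FPKM in controls, so leukemic libraries 1 to 3 lay above every control and leukemic library 4 did not. The part of these cells in the chemokine differences was not tested. Neutrophil markers summed to between 13.6 and 69.3 FPKM in leukemic and between 12.8 and 75.7 FPKM in control libraries.

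Sums of 6 T and NK markers (at most 2.54 FPKM), 6 endothelial markers (at most 1.66 FPKM) and the 5 dendritic cell markers in the table (at most 1.00 FPKM) were near the floor in all libraries. The 8 osteoblast markers, among them Col1a1, Ibsp and Sp7, summed to between 39350 and 84100 FPKM, and all 8 reached 1 FPKM in at least 4 libraries. Much of the highest sum was Spp1, at 60684 of 84100 FPKM in control library 3, while Sp7 ran from 30.2 to 69.8 FPKM. Markers of reticular stroma and of fibroblasts were abundant too, so the purity of the sort cannot be read from these sums. Fibroblast and tendon markers summed to between 7491 and 14090 FPKM in leukemic and between 4577 and 12570 FPKM in control libraries, with the lowest value in control library 3. Among 7 markers of lymphoid reticular and follicular dendritic cells, the known sources of Cxcl13 in lymphoid tissue, Cr2, Madcam1 and Ccl21a were at 0.18 FPKM or less in every library. Others of the list were detected, Pdpn at 10.5 to 19.9 FPKM and Fcer2a at 0.41 to 2.04 FPKM over the libraries, with groups that overlapped. The list summed to between 1354 and 2133 FPKM in leukemic and between 969.9 and 2208 FPKM in control libraries, most of it Mfge8. Its member Ccl19, a chemokine of lymphoid reticular cells, stood at 156.3, 253.5, 83.8 and 31.2 FPKM in leukemic libraries 1 to 4, against 10.1, 5.34, 7.96 and 2.68 FPKM in controls. Like Cxcl13, it was higher in every leukemic library than in any control (log2 difference 3.88, SE 0.58), although the order among the leukemic libraries was not that of Cxcl13. Its part in the Cxcl13 difference was not tested.

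Genes that overlap the members were checked, because the library kit does not mark strand. Cxcl10 lies within Art3 (92331799 to 92414628), which is annotated on the opposite strand, and 4.47% of the 31-base subsequences of Cxcl10 transcripts are also found in Art3 transcripts read backwards. Art3 stood at 22.0 ± 5.57 FPKM in leukemic and 13.7 ± 5.51 FPKM in control libraries (n = 4 each; log2 difference 0.69, SE 0.29, limma adjusted p = 0.695), with 13.2 FPKM in control library 3, where Cxcl10 was highest. Cxcl16 shares 18.5% of its subsequences with Zmynd15 on the opposite strand. Zmynd15 was low, between 0.28 and 1.66 FPKM in leukemic and between 0 and 0.33 FPKM in control libraries. The values of Cxcl10 and Cxcl16 carry this uncertainty.

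Genes whose profile over the 8 libraries was most like that of a member were found by the root mean square difference of log2(FPKM + 1), each gene centred on its own mean. For Cxcl13 they were the complement gene C3 (0.594), Plac8 (0.64) and the phagocyte oxidase gene Cybb (0.705), beside a standard deviation of Cxcl13 itself of 1.60. For Cxcl9 they were Il20ra (0.34), Serpina3g (0.386) and the cytokine gene Il6 (0.386), beside a standard deviation of 0.994. Il6 stood at 16.3, 40.8, 65.4 and 49.4 FPKM in the leukemic, and 21.0, 11.9, 51.4 and 9.96 FPKM in control libraries 1 to 4, so it too was highest among controls in library 3. The nearest gene was Zbp1 for Cxcl1 (0.233), P2ry14 for Cxcl10 (0.253), Tnfrsf14 for Cxcl2 (0.1), Ptpn6 for Cxcl14 (0.178) and Ache for Cxcl16 (0.121). All genes of a library share its depth and length trend, so these are descriptions of likeness only.

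**Figure D5:**
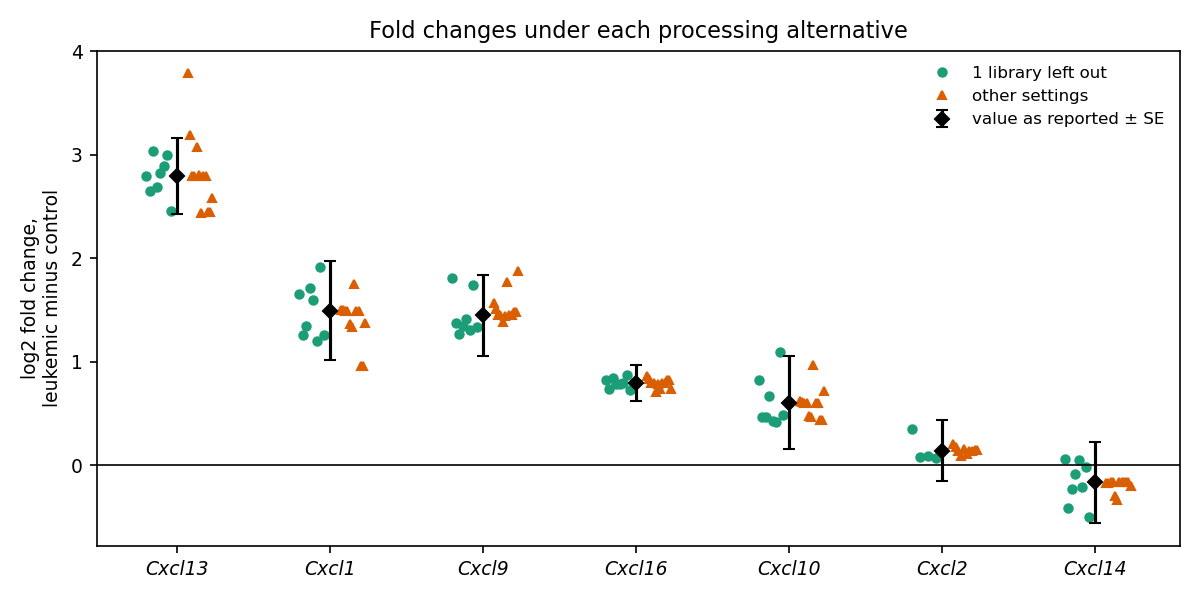
Log2 difference, leukemic minus control, of each fitted CXC chemokine: the value as reported with its standard error (black), the values with 1 library left out (green circles) and those under other settings (orange triangles). Cxcl13, Cxcl1, Cxcl9, Cxcl16, Cxcl10 and Cxcl2 stay above 0 throughout, and Cxcl14 crosses it.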

How the data were processed

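The authors' deposited table gives FPKM per gene and library for 17068 genes, with group means and a log2 ratio. Per the labels' protocols, bone cells were freed with collagenase, sorted, and made into SMART-Seq v4 libraries. Per the submitters' processing notes, the build was GRCm38.p6 and the tools included DESeq2, RSEM 1.2.8, HISAT2 2.0.4 and Bowtie2 2.2.5, with no role stated. The authors' deposited log2 ratios and group means were not used here.

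From the FPKM values, genes at 1 FPKM or more in at least 4 libraries (11214) were fitted on log2(FPKM + 1) with limma 3.58.1 (R 4.3.3), using moderated variances with a trend, 4 leukemic against 4 control libraries, two-sided, with Benjamini-Hochberg adjustment at 0.05. Fits were tested on simulated data. Summed FPKM ran from 456191 to 632055 per library. Read depth is unknown, so no counting interval is given. Transcript lengths, of the longest coding transcript, came from GENCODE for 99.1% of fitted genes. Each gene's deviation in a library from its mean over the 8 libraries was set against length. The rank correlation of this deviation with length ran from -0.354 to 0.35 among libraries.

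The members and lists were chosen with earlier results of these data known. All members, other CXC ligands and receptors are named; of each pathway list, genes past the threshold or without overlap and the 4 with the highest mean; and the nearest 3 profiles for Cxcl13 and Cxcl9, 1 for the others. Exceptions are marked, and 1 gene of the pathway lists, kept in the counts, is not reported here. Altogether 20 alternatives were run.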

Additional observations from a re-analysis of the deposited data

Results flagged for a closer look

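In 41 groups of 4 libraries, 10 had 1 library far from the other 3 by Dixon's criterion. Chance meets it in about 1 of 20 groups where values are normally distributed. Here it was applied to FPKM without logs, and 1 value that differs from 3 equal ones always meets it. The number of flagged groups therefore cannot be set against that rate. Among the 8 chemokines, all 3 such values were in control library 3: Cxcl9 at 12.98 FPKM (the next control at 6.07), Cxcl10 at 140.51 FPKM (next 38.45) and Cxcl2 at 1.87 FPKM (next 0.73). The summed marrow reticular stroma markers, mostly Cxcl12, were highest in that library, at 4972 FPKM, and fibroblast and tendon markers lowest among controls, at 4577 FPKM. Their part in the chemokine levels was not tested.

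The other 7 were at or near the floor of the table. In control library 4, Cxcl3 was 0.22 and Cxcl15 0.02 FPKM. In leukemic library 2, Cxcl17 was 1.38, Cxcr4 0.67 and Cxcr3, as the lowest value, 0.03 FPKM. Cxcr4 was 0.21 FPKM in control library 2, and Cxcr5 was 0.01 FPKM in leukemic library 1.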

How the results depend on the processing

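Over 20 alternatives, Cxcl13, Cxcl9, Cxcl10, Cxcl1, Cxcl2 and Cxcl16 kept a positive difference wherever they were fitted. Cxcl13 ranged from 2.435 to 3.79. It went past the adjusted threshold with quantile normalization (2.805) and array weights (2.435) and in none of the others, from which nothing is read, since it was chosen for this difference; no other member did in any. Cxcl14 ranged from -0.497 to 0.061 with 1 library left out and turned positive without leukemic library 1 (0.061) or control library 1 (0.055); the cause was not tested.

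Genes higher at an adjusted p under 0.05 numbered 0 as reported, 1 with no filter, 2 after rescaling every library to the same total (TPM), 3 with quantile normalization, 6 with array weights, 3 with the length trend removed, and 0 to 2 with 1 library left out (2 without leukemic library 4). At an unadjusted p under 0.05, 279 were higher as reported, 160 with a filter of 5 FPKM, 171 after rescaling, 680 with array weights and 164 to 1228 with 1 library left out (164 without leukemic library 3, 182 without control library 2, 166 without control library 4, 1228 without leukemic library 4). Lower genes numbered 463, against 267 with the 5 FPKM filter, 725 after rescaling and 864 with array weights. Rescaling moved the median difference of all genes from -0.025 to -0.15. Negative list genes numbered 20, against 12 without leukemic libraries 1 and 2, and 12 to 23 with 1 library left out (12 without leukemic library 1).

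The labels number the libraries 1 to 4 in both groups. Same-numbered libraries had correlations of their deviations of 0.122, -0.047, -0.072 and 0.22, and not every library correlated best with its own number, so the numbers were not taken as pairs. With the replicate block, 633 genes were higher at an unadjusted p under 0.05; with the block and the length trend removed, 424 were, and 1 passed the adjusted threshold. With the block, the Cxcl13 difference of 2.79 had SE 0.387.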
